A study of Homo sapiens with 15 samples.

Results

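The AP-1 family consists of basic leucine zipper (bZIP) transcription factors that bind DNA as dimers. Its members were taken by gene symbol. The symbols were JUN, JUNB, JUND, FOS, FOSB, FOSL1, FOSL2, BATF, BATF3 and MAFF, and these 10 of the 20468 genes in each expression table were found in both MM cell lines. MM.1S and RPMI8226 are established human myeloma lines, and HS5, which served as BMSCs, is an established human stromal line. MM cells were kept for 48 h in monoculture (MONO) or in a coculture device with HS5 cells attached in its lower chamber. Cells of the upper transwell (TSW) shared only the medium with HS5, while cells sorted from the lower chamber (CO) had also been in contact with them. RNA-Seq was performed with 3 replicates per condition for MM.1S and 2 for RPMI8226, which gave 15 libraries. The comparison of TSW with MONO addressed the response to the shared medium, and that of CO with TSW addressed what the lower chamber added. For the co-culture conditions the paper describes a trypsin step before sorting. The part of this step in the changes from MONO was not tested.

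JUN proteins pair with each other or with FOS proteins, whereas FOS proteins need a JUN partner to bind DNA stably. BATF and BATF3 are short bZIP proteins that pair with JUN proteins and, in lymphoid cells, bind beside IRF4 or IRF8, and MAFF is a small MAF protein that lacks a transactivation domain. Several of these genes are immediate early genes, transcribed soon after a signal from MAP kinases or cytokine receptors, and JUNB is known in MM for a role in growth and drug resistance.

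Expression was given as RPKM, the number of read pairs per kilobase of exon, scaled to the mapped reads of the library, which allows levels to be compared between genes. The authors deposited log2(RPKM + 1), where the 1 is a pseudocount that keeps genes without reads on the scale. Read pairs on genes, worked out from the steps between the values of a library, numbered between 9008909 and 19050583 per library. The lowest number was in MM.1S MONO replicate 1 and the highest in MM.1S MONO replicate 2. For the latter library the paper lists fewer read pairs on RefSeq transcripts, and it lists that same number for RPMI8226 MONO replicate 2. The sample labels do not say whether replicates were separate cultures, so every p-value measures only the spread between these libraries.

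Some libraries stood apart from the others of their line in genes outside the family, which were picked after their values were seen. RPS14P3, a ribosomal protein pseudogene, was at 84.2 RPKM in MM.1S MONO replicate 2 and between 2.20 and 5.83 in the other MM.1S libraries. In RPMI8226 it was at 94.8 and 93.6 in the TSW libraries and between 4.78 and 6.44 in the others. TRNN, a mitochondrial tRNA gene, was low in the same libraries, at 1.44 against 362 to 587 in MM.1S and at 2.22 and 1.53 against 82.3 to 228 in RPMI8226. Since both TSW libraries of RPMI8226 were affected, what set them apart and the TSW condition cannot be told apart in that line. Plasma cell genes were present in both lines. SDC1, which encodes CD138, had levels of 143 to 184 RPKM in MM.1S and 70.4 to 98.7 in RPMI8226. Of the 9 plasma cell markers examined, SLAMF7 was near 0 in RPMI8226, at 0.0184 to 0.104 RPKM, and at 64.7 or more in MM.1S. The other 8 were at 3.96 RPKM or more in every RPMI8226 library.

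JUNB was the member with the largest absolute gain in coculture in both lines, and it replaced JUND as the most abundant member. In MONO of both lines the order of mean levels was JUND, JUNB, JUN, with JUND at 31.6 ± 6.87 RPKM in MM.1S (SD, n = 3) and 28.7 ± 0.0565 in RPMI8226 (SD, n = 2). The values of JUNB and JUN overlapped in MONO of MM.1S. In TSW and CO of both lines JUNB stood first and JUND second, and their values did not overlap. At the other end, FOS, FOSL1 and FOSB were at 0.210 RPKM or less in MONO of MM.1S, with overlapping values.

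**Figure D1:**
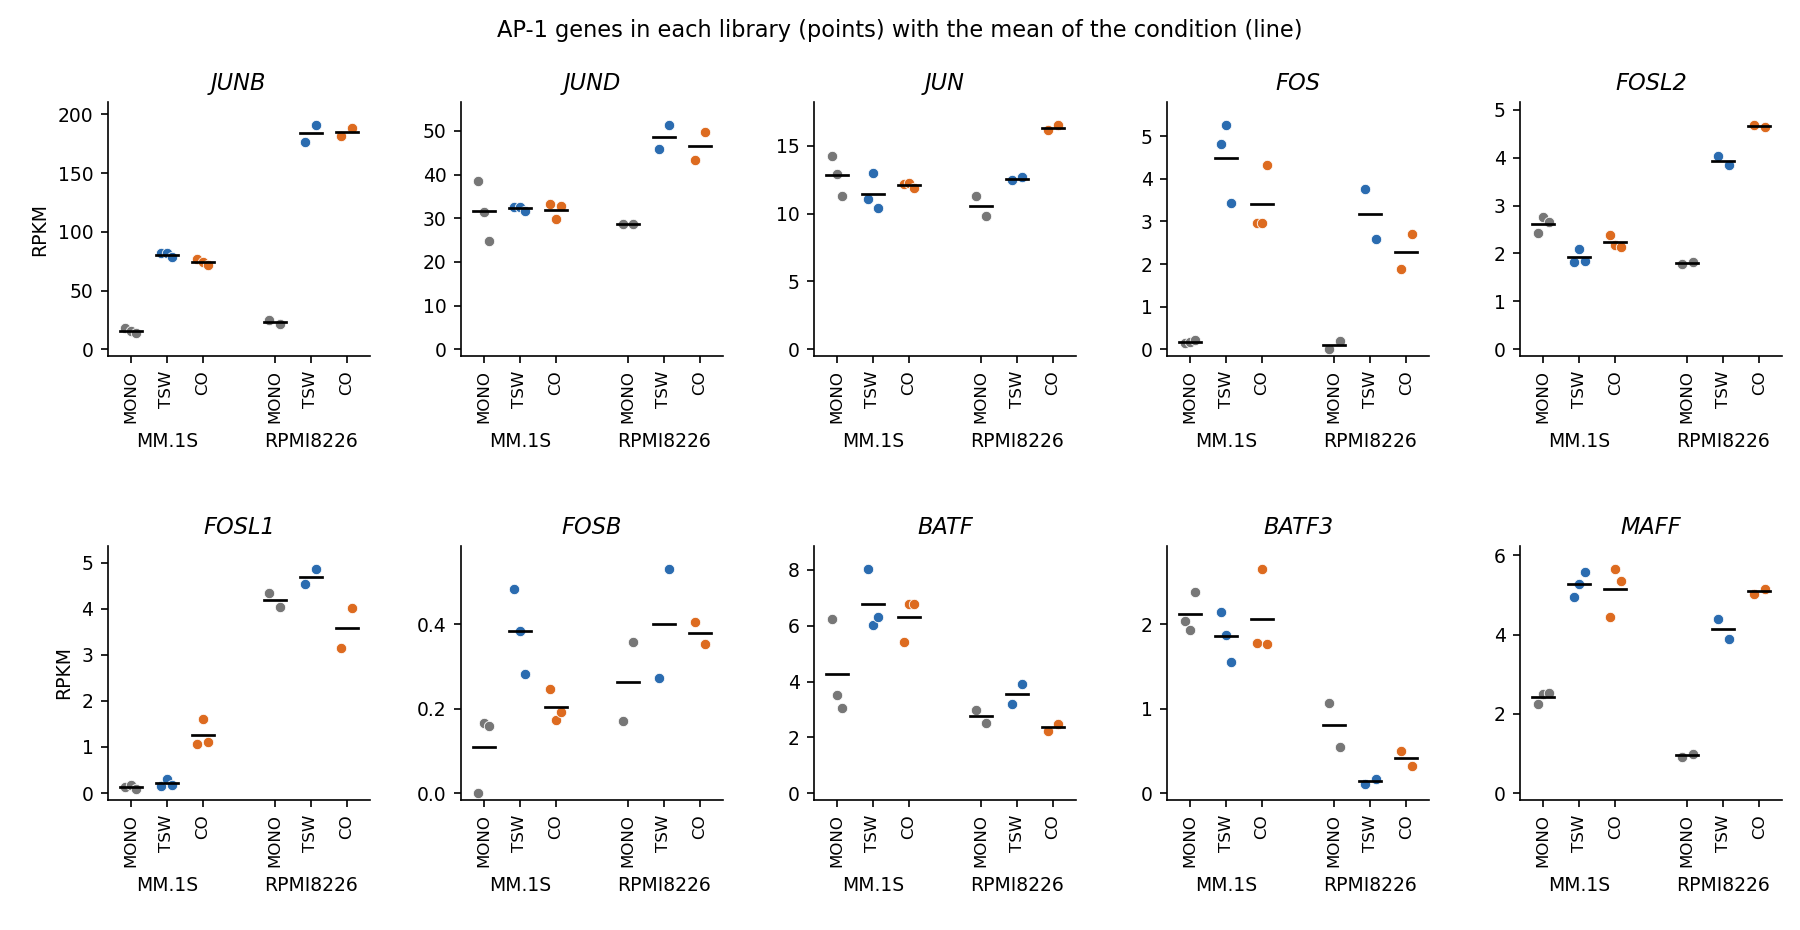
Expression of the 10 AP-1 genes in RPKM in each library of MM.1S (3 per condition) and RPMI8226 (2 per condition). Points are libraries and horizontal lines are means; JUNB, FOS and MAFF sit higher in every TSW and CO library than in every MONO library of the same line.

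Summed over the 10 genes, the mean level went from 72.1 ± 11.3 RPKM in MONO to 145 ± 5.09 in TSW and 139 ± 1.43 in CO of MM.1S (SD, n = 3). The corresponding sums in RPMI8226 were 73.3 ± 4.04, 265 and 267 (n = 2). JUNB made up 22.1% of the sum in MONO of MM.1S, 55.5% in TSW and 53.3% in CO, and in RPMI8226 its share was 31.7%, 69.4% and 69.4%. The coculture libraries of both lines thus held a JUNB-rich pool of AP-1 transcripts, while the MONO sums of the lines were alike. These are levels of mRNA in bulk samples, in which more RNA per cell and more cells that express the gene cannot be told apart.

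**Figure D2:**
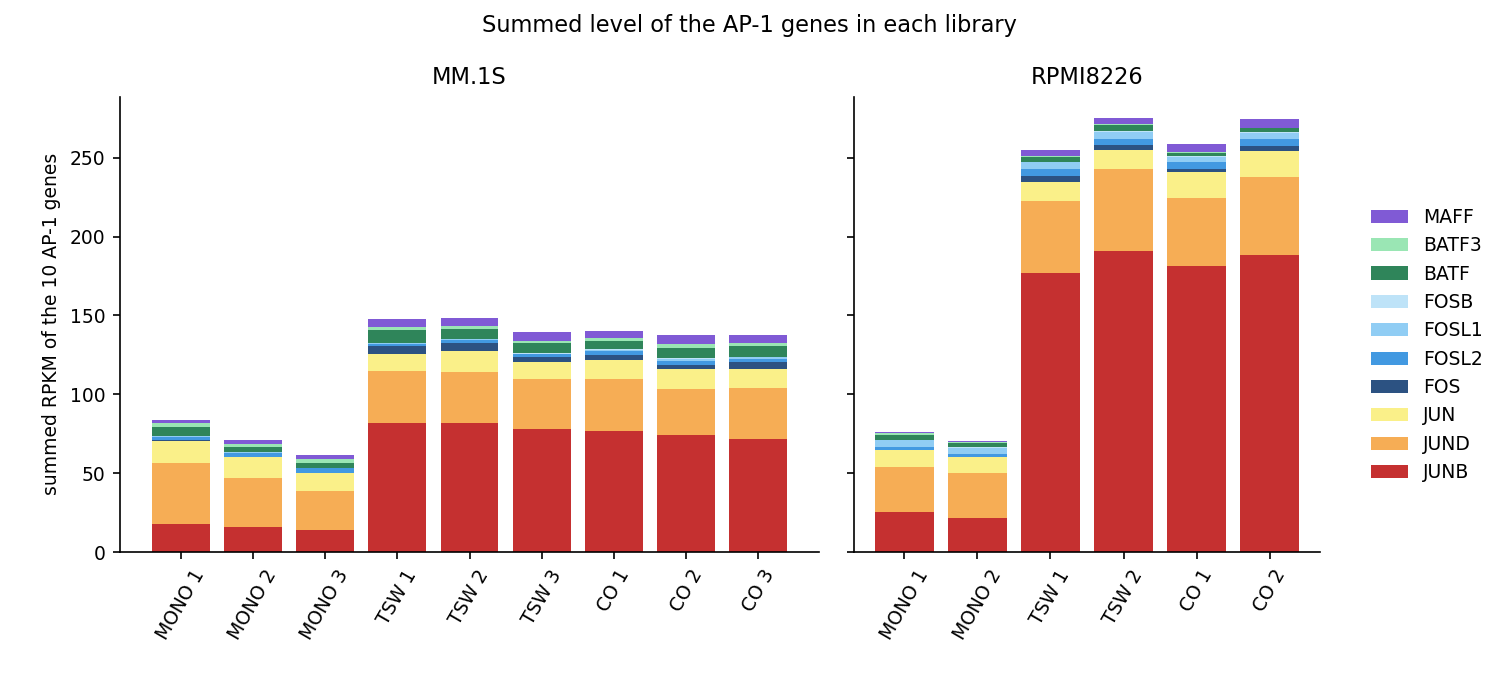
Stacked RPKM of the 10 AP-1 genes in each library, in MM.1S and RPMI8226. The JUNB segment is the largest in every TSW and CO library, with a mean share between 53.3% and 69.4% of the sum.

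Differential expression was tested with limma on log2(RPKM + 1) for genes with a mean of at least 1 RPKM in the line. A gene was called when its p-value, adjusted over all genes tested by the Benjamini-Hochberg method, was under 0.05 and its fold change was over 1.5. In each line 8 of the 10 members passed the filter. FOSB and FOSL1 did not in MM.1S, nor FOSB and BATF3 in RPMI8226. FOS in both lines and MAFF in RPMI8226 had a MONO mean under 1 RPKM and passed through the conditions where they were high. The filter thus required a higher mean in TSW or CO for them, though not a call. TSW vs. MONO and CO vs. MONO use the same MONO libraries and are given side by side.

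In MM.1S, 4 of the 8 members tested were called higher in TSW than in MONO, against 6.48% of the 10153 genes tested, and 0 were called lower, against 4.16%. For CO vs. MONO 3 were higher, against 7.13%, and 0 lower, against 4.65%. In RPMI8226, 5 of 8 were called higher in TSW, against 14.5% of 10319 genes, and 0 lower, against 17.9%. In CO 6 of 8 were higher, against 16.4%, and 0 lower, against 22.9%. The median log2 fold change of the members tested was 0.33 in TSW and 0.28 in CO of MM.1S, beside 0.01 and 0.01 for all genes tested. It was 0.78 and 0.85 in RPMI8226, beside -0.08 and -0.09. Median-of-ratios scaling moved these medians of all genes in RPMI8226 to -0.0061 and 0.0013.

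These counts include the members that passed the filter through the coculture conditions. Of the 7 members with a MONO mean of 1 RPKM or more in MM.1S, 3 were higher in TSW and 2 in CO, against 5.79% and 6.18% of the genes with such a mean, and 0 were lower, against 4.25% and 4.76%. Their median was 0.05 in TSW and 0.03 in CO, close to the 0.0058 and -0.0046 of those genes. Of 6 such members in RPMI8226, 3 were higher in TSW and 4 in CO, against 13% and 14.6%, and 0 were lower, against 18.5% and 23.6%. Their median was 0.51 and 0.63, beside -0.10 and -0.12. JUNB, FOS and MAFF were called higher in both lines, 3 of 7 members tested in both, in TSW and likewise in CO when each was compared with MONO, against 3.48% and 4.15% of 9397 genes. With a MONO mean of 1 RPKM or more in both lines it was JUNB alone of 5, against 2.88% and 3.35% of 9152 genes.

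Without MM.1S MONO replicate 2, which stood apart, JUNB, FOS and MAFF kept their calls in TSW and CO, and BATF lost its call in TSW. In RPMI8226 both TSW libraries were affected, so no fit could test the TSW count against what set them apart. With MONO and CO alone in the fit, JUNB, FOS, MAFF, FOSL2, JUND and JUN kept their calls in CO. In MM.1S limma called 0 members higher and 0 lower in CO vs. TSW, against 0.374% and 0.0394% of all genes, with 0 at an unadjusted p under 0.05, against 4.43%, and 0 by voom, limma's method for counts. In RPMI8226 it also called 0 and 0, against 1.9% and 2.39%, with 4 of 8 at an unadjusted p under 0.05 (MAFF, BATF, FOSL1 and JUN), against 40.4%, and 0 by voom.

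**Figure D3:**
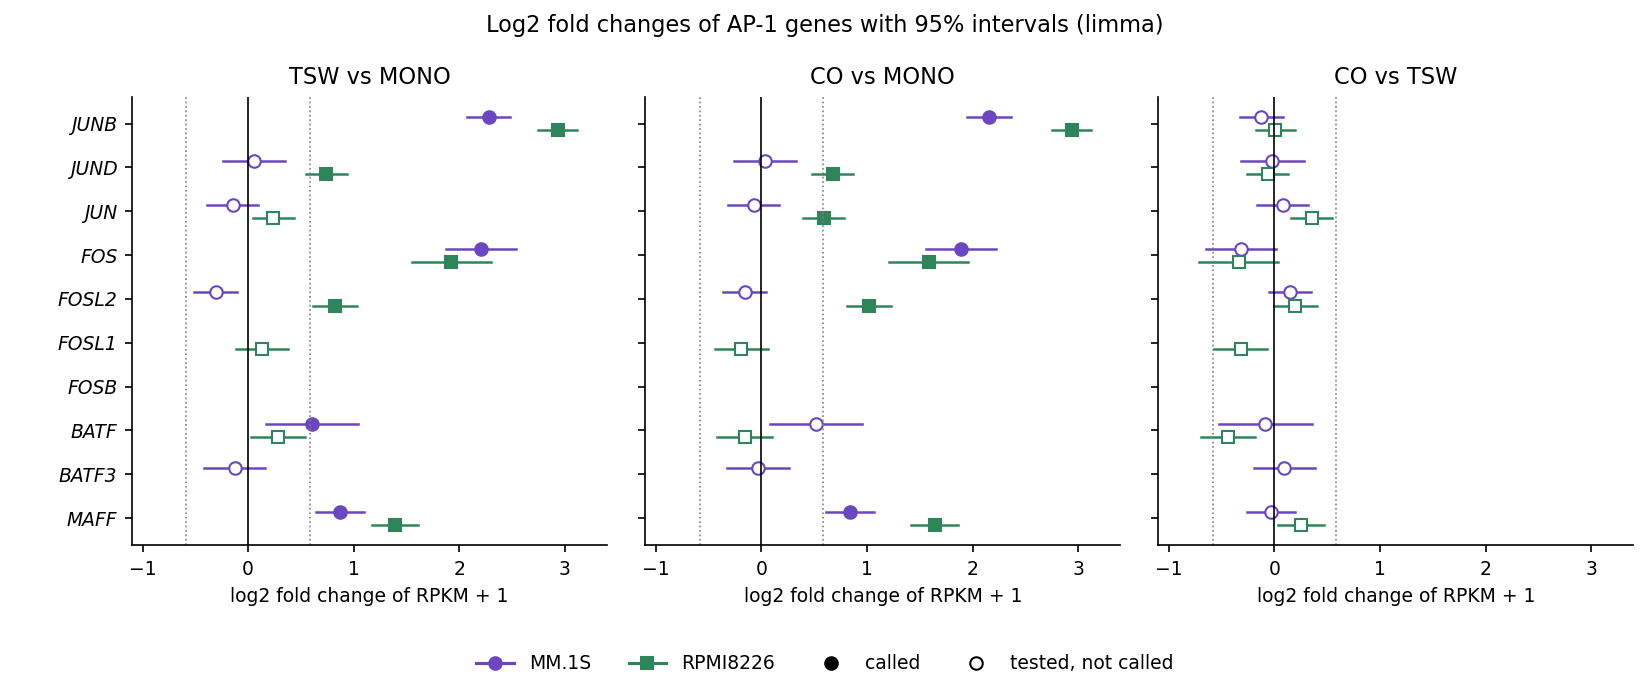
Log2 fold changes of the AP-1 genes tested, with 95% confidence intervals from limma, for TSW vs. MONO, CO vs. MONO and CO vs. TSW in each line. Filled points were called and dotted lines mark a fold change of 1.5; the filled points lie to the right of 0, and the CO vs. TSW panels hold none.

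JUNB encodes a JUN protein that can restrain or replace JUN in dimers. It lies on chromosome 19 as a gene of 1 exon (chr19:12791486-12793315, plus strand, GRCh38). The MONO libraries of MM.1S had 17.8, 15.7 and 14.2 RPKM, those of TSW 81.8, 81.7 and 78.2, and those of CO 76.4, 73.9 and 71.4. The MONO libraries of RPMI8226 had 25.1 and 21.5 RPKM, those of TSW 177 and 191, and those of CO 181 and 188. Each coculture library was far above each MONO library, and the RPMI8226 coculture libraries were above all those of MM.1S. Mean levels were 5.07-fold higher in TSW and 4.65-fold higher in CO of MM.1S, and 7.89-fold and 7.94-fold higher in RPMI8226. On the log2 scale the change in MM.1S was 2.28 ± 0.0937 (SE) in TSW (adjusted p = 6.89e-08) and 2.15 in CO (adjusted p = 5.16e-08). RPMI8226 gave 2.93 ± 0.0822 (SE; adjusted p = 1.35e-09) and 2.94 (adjusted p = 1.13e-09). Exons of JUNB share 259 of their 1830 bases (14.2%) with HOOK2 on the opposite strand, and the strand setting used in counting is not given. HOOK2 was between 1.94 and 3.75 RPKM in every library, and its part in the JUNB level was not tested.

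The TSW and CO levels of JUNB were close to each other, and limma called no difference. In MM.1S each CO library was slightly below each TSW library, and in RPMI8226 they overlapped. The log2 change between CO and TSW was -0.12 in MM.1S (adjusted p = 0.998) and 0.01 in RPMI8226 (adjusted p = 0.951). The direction in RPMI8226 turned when single libraries were left out, with changes between -0.05 and 0.06.

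JUND, the family member most often found at a steady level in resting cells, behaved differently in the lines. In MM.1S it was at 38.5, 31.5 and 24.8 RPKM in MONO, 32.7, 32.7 and 31.7 in TSW, and 33.3, 29.7 and 32.8 in CO. RPMI8226 had 28.6 and 28.7 in MONO, 45.8 and 51.4 in TSW, and 43.3 and 49.7 in CO. The MM.1S conditions overlapped, with the widest spread in MONO, whereas the RPMI8226 coculture libraries were all above MONO. JUND rose in RPMI8226 by 0.74 in TSW (adjusted p = 3.24e-05) and 0.68 in CO (adjusted p = 4.81e-05) on the log2 scale, or 1.70-fold and 1.62-fold. The CO call was lost without CO replicate 2 (0.58). In MM.1S the log2 changes were 0.05 (adjusted p = 0.787) and 0.03 (adjusted p = 0.856), and both were negative without MONO replicate 3, at -0.10 and -0.12.

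JUN, the strongest activator of the JUN proteins, moved less. Its MM.1S libraries lay between 10.4 and 14.3 RPKM with overlap of all conditions, and the log2 changes were -0.15 in TSW (adjusted p = 0.336) and -0.07 in CO (adjusted p = 0.638). RPMI8226 had 11.3 and 9.80 RPKM in MONO, 12.5 and 12.7 in TSW, and 16.1 and 16.5 in CO. Here the conditions did not overlap, and CO was the highest. JUN rose in CO of RPMI8226 by 0.59 (adjusted p = 0.000127), 1.55-fold, and this call was lost without MONO replicate 2 (0.50) or CO replicate 2 (0.57). Stromal markers were high in the same CO libraries, as described below for FOSL1, and the part of stromal RNA in the JUN level was not tested. The changes in TSW vs. MONO (0.24, adjusted p = 0.0321) and in CO vs. TSW (0.35, adjusted p = 0.0142) passed on p but were under the fold threshold. The level of JUNB over that of JUN had a mean of 1.24 in MONO of MM.1S, 7.08 in TSW and 6.11 in CO, and of 2.21, 14.6 and 11.3 in RPMI8226.

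RefSeq promoter windows of GRCh38.p14, from 250 bases before to 50 after the start site, were found for 8 of the 10 members, with 9 windows because MAFF has 2. FOSL1 and BATF3 had none. Each was searched on both strands for the AP-1 site TGACTCA, the cAMP response element TGACGTCA, the STAT site TTCNNNGAA and the CArG box of serum response factor; no matches overlapped. Among 35116 promoters of the same length, 4.95%, 1.85%, 7.66% and 1.29% held them. The windows of JUNB (chr19:12791236-12791535, plus strand) and JUND (chr19:18281573-18281872, minus strand) are printed 5′ to 3′ because JUNB rose in both lines and JUND was called in RPMI8226 alone. Capitals mark a match, which is present in JUND (TGACGTCA, at positions -200 to -193, with the start site as 0). The JUNB window holds none of these letters. Sites outside the windows and variants of the letters were not searched for.
JUNB: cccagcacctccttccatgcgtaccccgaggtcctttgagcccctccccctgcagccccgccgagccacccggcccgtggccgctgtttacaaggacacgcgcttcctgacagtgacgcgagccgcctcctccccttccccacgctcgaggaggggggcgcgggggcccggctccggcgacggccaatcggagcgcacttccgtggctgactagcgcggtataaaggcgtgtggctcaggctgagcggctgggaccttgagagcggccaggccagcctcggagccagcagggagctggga
JUND: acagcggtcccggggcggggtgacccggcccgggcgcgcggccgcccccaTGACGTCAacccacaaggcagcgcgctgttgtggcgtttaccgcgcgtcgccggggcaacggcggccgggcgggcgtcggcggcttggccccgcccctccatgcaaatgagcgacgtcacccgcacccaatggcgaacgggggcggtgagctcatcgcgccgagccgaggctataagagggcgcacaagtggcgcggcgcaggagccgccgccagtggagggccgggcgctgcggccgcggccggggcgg

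FOS was nearly silent in MONO and present in every coculture library. It encodes the founding partner of JUN, an immediate early gene product, and lies on chromosome 14 (chr14:75278828-75282230, plus strand), 240 kb from BATF. In MM.1S it was at 0.154, 0.170 and 0.210 RPKM in MONO (3, 7 and 6 read pairs), 4.81, 5.27 and 3.42 in TSW (148, 173 and 97), and 2.96, 2.96 and 4.32 in CO (103, 98 and 129). In RPMI8226 it was at 0 and 0.188 in MONO (0 and 6 read pairs), 3.77 and 2.58 in TSW (151 and 100), and 1.87 and 2.71 in CO (66 and 110). MONO was separated from TSW and CO in both lines, and TSW and CO overlapped. From the pooled read pairs, FOS was 25.3-fold higher in TSW (exact 95% interval 15.4 to 44.8) and 18.8-fold higher in CO (11.4 to 33.3) of MM.1S. In RPMI8226 it was 31.3-fold (14.2 to 86.1) and 22.8-fold (10.3 to 63.0) higher, on 6 MONO read pairs that all came from replicate 2. Without MONO replicate 1 these ratios were 16.98 and 12.4, and without replicate 2 they have no finite value. Leaving out single libraries of MM.1S gave 23.1 to 28.1 in TSW and 16.5 to 20.5 in CO. The log2 changes, which the pseudocount holds down at such low levels, were 2.21 (adjusted p = 2.74e-06) and 1.89 (adjusted p = 7.41e-06) in MM.1S, and 1.92 (adjusted p = 3.59e-06) and 1.58 (adjusted p = 1.09e-05) in RPMI8226.

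FOSL2 encodes FRA2, a FOS protein without the transactivation domain of FOS, and it went separate ways in the lines. In MM.1S it was at 2.42, 2.75 and 2.65 RPKM in MONO, 1.82, 2.09 and 1.84 in TSW, and 2.39, 2.18 and 2.13 in CO. The MONO libraries of RPMI8226 had 1.78 and 1.81, TSW 4.03 and 3.86, and CO 4.69 and 4.65. Every coculture library of MM.1S was below every MONO library, and every one of RPMI8226 was above. FOSL2 rose in RPMI8226 by 0.82 in TSW (adjusted p = 2.35e-05) and 1.02 in CO (adjusted p = 3.53e-06), 2.19-fold and 2.60-fold. Stromal markers were high in these CO libraries, and the part of stromal RNA in the FOSL2 level was not tested. In MM.1S the log2 change was -0.31 in TSW, under the fold threshold (adjusted p = 0.0294, and 0.00820 to 0.0979 over the alternatives), and -0.16 in CO (adjusted p = 0.203).

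FOSL1 encodes FRA1, a FOS protein known for high levels in mesenchymal and invasive cells, and in MM.1S its level was high in CO. It had 0.127, 0.180 and 0.0860 RPKM in MONO of MM.1S (2, 6 and 2 read pairs), 0.160, 0.300 and 0.174 in TSW (4, 8 and 4), and 1.06, 1.6 and 1.11 in CO (30, 43 and 27). The CO libraries were above all others, and MONO and TSW overlapped. By pooled read pairs CO was 9.13-fold above MONO (exact 95% interval 4.76 to 19.6) and 5.88-fold above TSW (3.45 to 10.7), with 7.75 to 12.3 and 5.07 to 7.56 when single libraries were left out. FOSL1 did not pass the filter in MM.1S; without a filter, limma called it in CO vs. MONO (0.99, adjusted p = 0.000132) and in CO vs. TSW (0.89, adjusted p = 0.000648). In RPMI8226 it was the most abundant FOS gene in MONO, at 4.34 and 4.05 RPKM, with 4.52 and 4.87 in TSW and 3.15 and 4.01 in CO. There the log2 changes were 0.13 in TSW (adjusted p = 0.311) and -0.19 in CO (adjusted p = 0.152).

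Markers of stromal cells were high in the same CO libraries of MM.1S as FOSL1. Of 40 stromal genes in the tables, 37 to 39 were above 0 in the CO libraries of MM.1S and 16 to 23 in MONO and TSW. Their summed level was 28.8 to 32.6 RPKM in MONO, 18.8 to 19.8 in TSW and 196 to 229 in CO. The most abundant was CAV1 in MONO and TSW and MMP1 in CO, at 41.0 to 46.9 RPKM. MMP1, MMP3, COL1A2, COL3A1, CXCL8 and TFPI2 were at 0 in every MONO and TSW library of MM.1S. Of the defining markers, COL1A1 was at 4.84 to 6.37 RPKM in CO and at most 0.150 in MONO and TSW. In RPMI8226 the sum without FN1, which this line itself expressed at 3990 and 4310 RPKM in MONO, was 41.1 and 40.8 in MONO, 28.2 and 28.7 in TSW and 170 and 240 in CO, where CXCL8 was the most abundant. The CO cells had been sorted, but the authors reported a small share of HS5 cells still among them, and the part of stromal RNA in the level of FOSL1 was not tested.

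**Figure D4:**
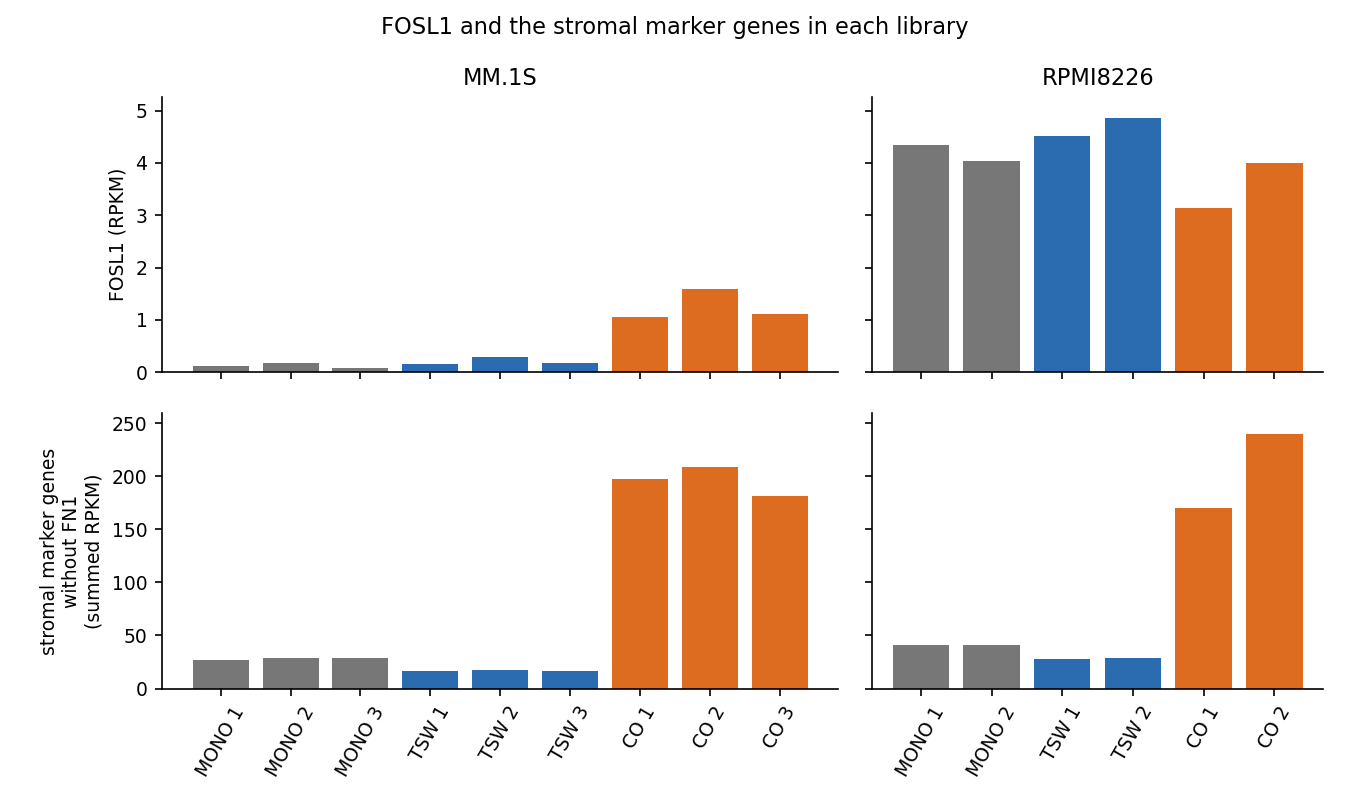
FOSL1 (RPKM) and the summed RPKM of the stromal genes without FN1 in each library, in MM.1S and RPMI8226. In MM.1S both are high in the CO libraries, while in RPMI8226 the stromal sum is high in CO and FOSL1 is not.

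FOSB, an immediate early gene like FOS, was at 0.532 RPKM or less in every library of both lines. In MM.1S it had 0, 12 and 8 read pairs in MONO, 26, 22 and 14 in TSW, and 15, 10 and 10 in CO. By pooled read pairs TSW was 3.01-fold above MONO (exact 95% interval 1.79 to 5.26; 2.35 to 4.05 when single libraries were left out), and without a filter its log2 change of 0.32 was under the fold threshold (adjusted p = 0.0171). The 4 FOS genes together went from 3.03 RPKM in MONO to 7.01 in TSW and 7.11 in CO of MM.1S, and from 6.35 to 12.2 and 10.9 in RPMI8226. The makeup of this sum differed between conditions. FOSL2 held 86.4% of it in MONO of MM.1S and 27.7% in TSW, where FOS held 63.8%. In CO of MM.1S FOS held 47.7%, FOSL2 31.6% and FOSL1 17.8%, against 2.99% for FOSL1 in TSW. In RPMI8226 FOSL1 held the largest part in MONO (66.1%) and TSW (38.5%). FOSL2 held 28.3% in MONO and 32.3% in TSW, where FOS held 25.9%, and in CO FOSL2 was the largest, ahead of FOSL1 (32.6%) and FOS (20.8%).

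The windows of FOS (chr14:75278578-75278877, plus strand) and FOSL2 (chr2:28392608-28392907, plus strand) are printed because FOS rose in both lines and FOSL2 was called in RPMI8226 alone. The FOSL2 window holds the AP-1 site TGACTCA at positions 4 to 10, in capitals, and the FOS window holds no match to the 4 motifs. Here too, sites outside the windows and variants of the letters were not searched for.
FOS: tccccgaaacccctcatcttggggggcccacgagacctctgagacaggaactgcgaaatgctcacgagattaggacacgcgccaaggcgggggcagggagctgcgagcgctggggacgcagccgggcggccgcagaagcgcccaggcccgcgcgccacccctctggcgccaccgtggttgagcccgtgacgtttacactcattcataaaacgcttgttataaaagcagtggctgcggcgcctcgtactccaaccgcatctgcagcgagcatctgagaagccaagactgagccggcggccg
FOSL2: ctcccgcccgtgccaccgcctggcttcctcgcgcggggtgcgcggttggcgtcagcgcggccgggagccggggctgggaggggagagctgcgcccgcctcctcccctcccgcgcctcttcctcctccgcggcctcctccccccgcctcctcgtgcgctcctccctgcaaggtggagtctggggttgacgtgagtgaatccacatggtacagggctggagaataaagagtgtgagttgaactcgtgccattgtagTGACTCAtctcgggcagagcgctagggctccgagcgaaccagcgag

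MAFF, which pairs with NFE2-related and BACH proteins as well as with FOS, rose in both lines. In MM.1S it was at 2.24, 2.51 and 2.53 RPKM in MONO, 4.96, 5.27 and 5.57 in TSW, and 4.44, 5.67 and 5.34 in CO. RPMI8226 had 0.918 and 0.987 in MONO, 4.39 and 3.88 in TSW, and 5.04 and 5.15 in CO. Every coculture library was above every MONO library, and in RPMI8226 CO was also above TSW. Stromal markers were high in the same CO libraries, and the part of stromal RNA in the MAFF level was not tested. The log2 change in MM.1S was 0.87 in TSW (adjusted p = 0.000166) and 0.84 in CO (adjusted p = 0.000205), 2.17-fold and 2.12-fold. RPMI8226 gave 1.39 (adjusted p = 8.50e-07) and 1.64 (adjusted p = 1.81e-07), 4.34-fold and 5.35-fold, and CO vs. TSW was 0.25 (adjusted p = 0.0868). Exons of MAFF share 326 of 5611 bases (5.81%) with PLA2G6 on the opposite strand. PLA2G6 was also higher in TSW and CO of RPMI8226, with means of 1.21, 5.42 and 5.54 RPKM in MONO, TSW and CO, while those in MM.1S were 2.51, 2.82 and 2.65. Its part in the MAFF level was not tested.

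MAFF has 2 promoter windows, and the first (chr22:38201744-38202043, plus strand) is printed because MAFF rose in both lines and the window holds matches to 2 motifs. Capitals mark TGACGTCA, at positions -54 to -47, and the STAT site TTCCGGGAA, at positions 2 to 10. The second window holds no match.
MAFF: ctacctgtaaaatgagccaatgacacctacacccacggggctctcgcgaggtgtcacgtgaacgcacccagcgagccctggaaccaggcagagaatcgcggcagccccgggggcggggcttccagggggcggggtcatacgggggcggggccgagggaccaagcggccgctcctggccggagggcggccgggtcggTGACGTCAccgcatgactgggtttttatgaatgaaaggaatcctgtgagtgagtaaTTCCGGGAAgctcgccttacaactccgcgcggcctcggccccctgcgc

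BATF was called in TSW of MM.1S on overlapping values. It was at 6.25, 3.51 and 3.04 RPKM in MONO, 8.05, 6.01 and 6.31 in TSW, and 5.41, 6.79 and 6.76 in CO. MONO replicate 1, the library of lowest depth, lay within the range of the coculture libraries, and the other MONO libraries were below it. The log2 change was 0.60 in TSW (adjusted p = 0.0438) and 0.52 in CO (adjusted p = 0.0684). The TSW call held under 6 of 19 alternatives, with adjusted p between 0.000541 and 0.151. Without MONO replicate 1 the changes were 0.86 and 0.77 and both were called (adjusted p = 0.000541 and 0.00106). Without any other single MM.1S library the TSW call was lost, with changes between 0.44 and 0.67, and by voom both were called, at 0.79 and 0.69.

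In RPMI8226 BATF was at 2.98 and 2.51 RPKM in MONO, 3.21 and 3.91 in TSW, and 2.21 and 2.49 in CO. Its log2 changes of 0.28 in TSW (adjusted p = 0.0513) and -0.16 in CO (adjusted p = 0.240) were not called, and CO vs. TSW (-0.44, adjusted p = 0.0187) was under the fold threshold. IRF4 and IRF8, which bind beside BATF and JUN dimers, were called in 0 of the MM.1S comparisons, in which 0.374% to 7.13% of all genes were higher and 0.0394% to 4.65% lower. Both fell in RPMI8226, where 17.9% of all genes were lower in TSW and 22.9% in CO, IRF4 from 78.3 ± 0.801 RPKM in MONO to 40.4 ± 4.59 in TSW and 40.8 ± 3.52 in CO (SD, n = 2) and IRF8 from 13.1 to 5.47 and 5.77. BATF3 was near 2 RPKM in MM.1S, between 1.55 and 2.66, with overlap of all conditions and log2 changes of -0.13 and -0.03. In RPMI8226 it had 13 and 8 read pairs in MONO, 2 and 3 in TSW, and 8 and 6 in CO. TSW was at 0.178 of MONO by pooled read pairs (exact 95% interval 0.0525 to 0.485; 0.132 to 0.254 when single libraries were left out), and without a filter BATF3 was called lower there (-0.65, adjusted p = 0.0150).

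Differences between the lines were tested in 1 fit of the 15 libraries, on 9397 genes with a mean of at least 1 RPKM in both lines, a test chosen after the data had been seen. A positive value is a larger change in RPMI8226. For TSW vs. MONO 3 of 7 members were called higher, against 10.9% of the genes, and 0 lower, against 16%. For CO vs. MONO 5 of 7 were higher, against 11.3%, and 0 lower, against 20.6%. MAFF in RPMI8226 and FOS in both lines are among the 7 although their MONO means were under 1 RPKM. Of 5 members with a MONO mean of 1 RPKM or more in both lines, 3 were higher in TSW, against 10.5% of 9152 such genes, and 4 in CO, against 10.8%, and 0 were lower, against 16.1% and 20.8%. The median difference of the 7 was 0.52 and 0.66, beside -0.12 and -0.14 for all genes, and median-of-ratios scaling moved the median of all genes in CO vs. MONO to 0.01. For CO vs. TSW limma called 0 and 0, against 0.0426% and 0.0958%, with 0 at an unadjusted p under 0.05, against 9.64%, and 0 by voom.

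Of these 7 members FOSL2 differed most, by 1.13 in TSW (adjusted p = 9.78e-06) and 1.18 in CO (adjusted p = 4.69e-06). JUNB differed by 0.65 (adjusted p = 0.00196) and 0.78 (adjusted p = 0.000382), and the former was lost without MM.1S MONO replicate 1 (0.57) or RPMI8226 MONO replicate 2 (0.55). JUND differed by 0.68 (adjusted p = 0.0116) and 0.64 (adjusted p = 0.0141). Both JUND calls were lost without MM.1S MONO replicate 1 (0.54 and 0.49), the former without RPMI8226 TSW replicate 2 (0.60) and the latter without RPMI8226 CO replicate 2 (0.54). Without MM.1S MONO replicate 1 the count for TSW was thus 1, FOSL2. The share of all genes called in that fit is not given, so this count has no background beside it. JUN was called in CO alone, by 0.66 (adjusted p = 0.00295), and not without RPMI8226 MONO replicate 2 (0.57). MAFF was called in CO (0.80, adjusted p = 0.000466), while in TSW its difference of 0.52 (adjusted p = 0.0107) was under the fold threshold. It was called under 6 of 22 alternatives: without RPMI8226 TSW replicate 2 (0.59, adjusted p = 0.0170), with median-of-ratios scaling (0.61), quantile normalization (0.59) or a pseudocount of 0.1 (0.92), by voom (0.997), and with no fold threshold. BATF differed by -0.68 in CO (adjusted p = 0.0650), and was called lower without MM.1S MONO replicate 1 (-0.93). FOSL1 was not among the 7; without a filter it differed by -1.18 in CO (adjusted p = 0.000103) and was called lower, with 0.03 in TSW (adjusted p = 0.909). For FOS the difference was -0.28 in TSW (adjusted p = 0.399) and -0.31 in CO (adjusted p = 0.345), and it was positive with a pseudocount of 0.1 (0.22 and 0.15) and by voom (1.09 and 1.05).

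The genes most like JUNB were found by Pearson's r across the 9 libraries of MM.1S and the 6 of RPMI8226, averaged over the lines, among 9397 genes. The libraries fall into MONO and coculture groups, so r mainly reads that contrast and is given as a description. The 5 highest were CYTH4 (0.999), SOCS3 (0.998), GBP2 (0.997), BCL3 (0.997) and MID1IP1 (0.997). SOCS3, a feedback inhibitor of cytokine signaling, was at 0.129 ± 0.0287 RPKM in MONO, 64.4 ± 2.26 in TSW and 68.6 ± 3.18 in CO of MM.1S (SD, n = 3). RPMI8226 had 1.56, 52.4 and 51.8. GBP2, an interferon-induced GTPase, went from 2.15 RPKM in MONO to 18.3 and 16.7 in MM.1S and from 10.5 to 132 and 147 in RPMI8226. Among the members, MAFF (0.976) and FOS (0.968) were closest, and FOSL2 had r of -0.83 in MM.1S and 0.98 in RPMI8226.

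MAP kinases that act on AP-1 proteins were taken as a list. Of 23 of their genes tested in MM.1S, MAP3K8, a kinase upstream of ERK, was the 1 called higher in each of TSW and CO, from 1.02 RPKM in MONO to 2.38 and 2.79, against 6.48% and 7.13% of all genes, and 0 were lower, against 4.16% and 4.65%. Of 22 in RPMI8226, 3 were higher and 1 lower in TSW (all genes 14.5% and 17.9%), and 2 were higher and 2 lower in CO (16.4% and 22.9%). With a MONO mean of 1 RPKM or more, 1 of 22 in MM.1S was higher in each of TSW and CO (all genes with such a mean 5.79% and 6.18%) and 0 were lower (4.25% and 4.76%). Of 21 in RPMI8226, 2 were then higher and 1 lower in TSW (13% and 18.5%), and 1 was higher and 2 lower in CO (14.6% and 23.6%). MAP3K8 and MAP3K5 rose in both TSW and CO of RPMI8226. Of these genes 1 had a MONO mean under 1 RPKM there and passed the filter through the coculture libraries. This required a higher mean in those libraries, though not a call. MAPK13, a p38 kinase, fell in RPMI8226 from 27.9 RPKM to 9.83 in TSW and 8.93 in CO. The medians were 0.04 and 0.13 in MM.1S, beside 0.01 and 0.01 for all genes. They were -0.09 and -0.02 in RPMI8226, beside -0.08 and -0.09. In CO vs. TSW limma called 0 in both lines, against 0.374% and 1.9% of all genes higher and 0.0394% and 2.39% lower.

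Among factors that act at FOS and JUN promoters, STAT3, which carries the IL6 signal, rose in both lines. It went from 15.5 ± 0.562 RPKM in MONO to 44.8 ± 1.13 in TSW and 41.3 ± 1.22 in CO of MM.1S (SD, n = 3), and from 17.8 to 58.9 and 54.8 in RPMI8226. Of 11 such genes tested in each line, 1 was higher in TSW (all genes 6.48%) and 2 in CO (7.13%) of MM.1S, with MEF2D as the other one, and 0 were lower (4.16% and 4.65%). In RPMI8226 3 were higher and 1 lower in TSW (14.5% and 17.9%), and 4 higher and 2 lower in CO (16.4% and 22.9%). MEF2C and MEF2A rose, MKL2 fell in both and ELK1 fell in CO. The medians were 0.10 and 0.14 in MM.1S and 0.22 and 0.43 in RPMI8226.

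Of the related bZIP genes, NFE2L1 and ATF3 were called higher in TSW and CO of both lines. ATF3, a stress-induced partner of JUN proteins, went from 10.4 ± 0.575 RPKM in MONO to 28.1 ± 0.368 in TSW and 20.7 ± 3.13 in CO of MM.1S (SD, n = 3), and from 1.94 to 10.6 and 9.25 in RPMI8226. Of 11 tested in MM.1S, 3 were higher and 0 lower in TSW (all genes 6.48% and 4.16%) and in CO (7.13% and 4.65%), with MAF as the other one. Of 11 in RPMI8226, 6 were higher and 1 lower in TSW (14.5% and 17.9%), and 9 were higher and 1 lower in CO (16.4% and 22.9%). BACH1, a partner of small MAF proteins, rose there from 11.4 to 26.3 and 33.5 RPKM, and MAFK, a small MAF gene like MAFF, fell from 5.23 to 3.03 and 2.49. The medians were 0.26 and 0.29 in MM.1S and 0.68 and 0.71 in RPMI8226.

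Other immediate early genes moved in both directions. In MM.1S 6 of 22 tested were higher and 2 lower in TSW (all genes 6.48% and 4.16%), and 8 were higher and 2 lower in CO (7.13% and 4.65%). SGK1, a kinase induced by glucocorticoids and serum, went from 20.5 ± 3.83 RPKM to 187 ± 8.92 in TSW and 153 ± 7.7 in CO (SD, n = 3), while KLF2 fell from 16.7 to 5.81 and 3.82 and DUSP4 from 11.6 to 5.89 and 6.23. In RPMI8226 12 of 22 were higher and 2 lower in TSW (14.5% and 17.9%), and 14 were higher and 2 lower in CO (16.4% and 22.9%). SGK1 went there from 2.61 to 162 and 142 RPKM, MCL1, a survival factor, from 67.0 to 377 and 494, and DUSP5, a phosphatase of ERK, from 20.8 to 145 and 131. MYC fell from 384 to 159 and 132. The medians were 0.19 and 0.11 in MM.1S and 0.74 and 0.79 in RPMI8226. With a MONO mean of 1 RPKM or more, 5 of 20 in MM.1S were higher and 2 lower in TSW (all genes with such a mean 5.79% and 4.25%), and 6 were higher and 2 lower in CO (6.18% and 4.76%). In RPMI8226 11 of 20 were then higher and 2 lower in TSW (13% and 18.5%), and 12 were higher and 2 lower in CO (14.6% and 23.6%). In CO vs. TSW CYR61 was the 1 called in MM.1S, and IER3 and CYR61 were the 2 called in RPMI8226, against 0.374% and 1.9% of all genes called higher. CYR61 is also on the stromal list and passed the filter only through CO, so its mean had to be higher there. Of 21 with a TSW mean of 1 RPKM or more, 0 were called in MM.1S and 1 in RPMI8226, against 0.13% and 1.61% higher.

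Genes known as AP-1 targets are partly stromal markers as well. In MM.1S 2 of 10 tested were higher and 1 lower in TSW (all genes 6.48% and 4.16%), and 7 were higher and 1 lower in CO (7.13% and 4.65%). VEGFA went from 8.75 ± 0.429 RPKM in MONO to 17.6 ± 0.303 in TSW (SD, n = 3) and CD44 fell from 87.8 to 49.8 and 37.9. MMP1, MMP3 and CXCL8 were at 0 in MONO and TSW and at 44.2, 10.9 and 23.7 RPKM in CO. They are also on the list of stromal markers, and they passed the filter only through CO, so their means had to be higher there. In RPMI8226 4 of 13 were higher and 2 lower in TSW (14.5% and 17.9%), and 9 were higher and 2 lower in CO (16.4% and 22.9%). MMP13 went from 3.30 ± 0.909 RPKM in MONO to 119 ± 28.4 in TSW and 156 ± 16.9 in CO (SD, n = 2), and HMOX1 fell from 145 to 6.06 and 4.87. Only 5 of the 10 in MM.1S and 8 of the 13 in RPMI8226 had a MONO mean of 1 RPKM or more. Of these 5, 1 was higher and 1 lower in TSW (all genes with such a mean 5.79% and 4.25%), and 2 were higher and 1 lower in CO (6.18% and 4.76%), with medians of 0.09 and 0.19. Of the 8, 3 were higher and 2 lower in TSW (13% and 18.5%), and 4 were higher and 2 lower in CO (14.6% and 23.6%), with medians of 0.12 and 0.64. In CO vs. TSW 6 of the 10 targets were higher in MM.1S (all genes 0.374%) and 6 of the 13 in RPMI8226 (1.9%), and 0 were lower (0.0394% and 2.39%). With a TSW mean of 1 RPKM or more, it was 2 of 6 (0.13%) and 2 of 8 (1.61%), and 0 were lower (0.0399% and 2.45%).

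Of the stromal genes, 20 were tested in MM.1S, with 0 higher and 2 lower in TSW (all genes 6.48% and 4.16%), and 16 higher and 1 lower in CO (7.13% and 4.65%). Of 16 tested in RPMI8226, 2 were higher and 3 lower in TSW (14.5% and 17.9%), and 13 higher and 2 lower in CO (16.4% and 22.9%). Most of them were near 0 in MONO and passed the filter through CO, so they had to be higher there. A MONO mean of 1 RPKM or more was reached by 5 in each line. In MM.1S, 0 of these were higher and 2 lower in TSW (all genes with such a mean 5.79% and 4.25%), and 1 was higher and 1 lower in CO (6.18% and 4.76%). In RPMI8226 0 were higher and 3 lower in TSW (13% and 18.5%), and 2 were higher and 2 lower in CO (14.6% and 23.6%). In CO vs. TSW 17 of the 20 were higher in MM.1S (all genes 0.374%) and 11 of the 16 in RPMI8226 (1.9%), and 0 were lower (0.0394% and 2.39%). With a TSW mean of 1 RPKM or more, 3 of 5 (0.13%) and 2 of 6 (1.61%) were higher and 0 lower (0.0399% and 2.45%). The part of stromal RNA in the CO levels of the target genes was not tested.

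**Figure D5:**
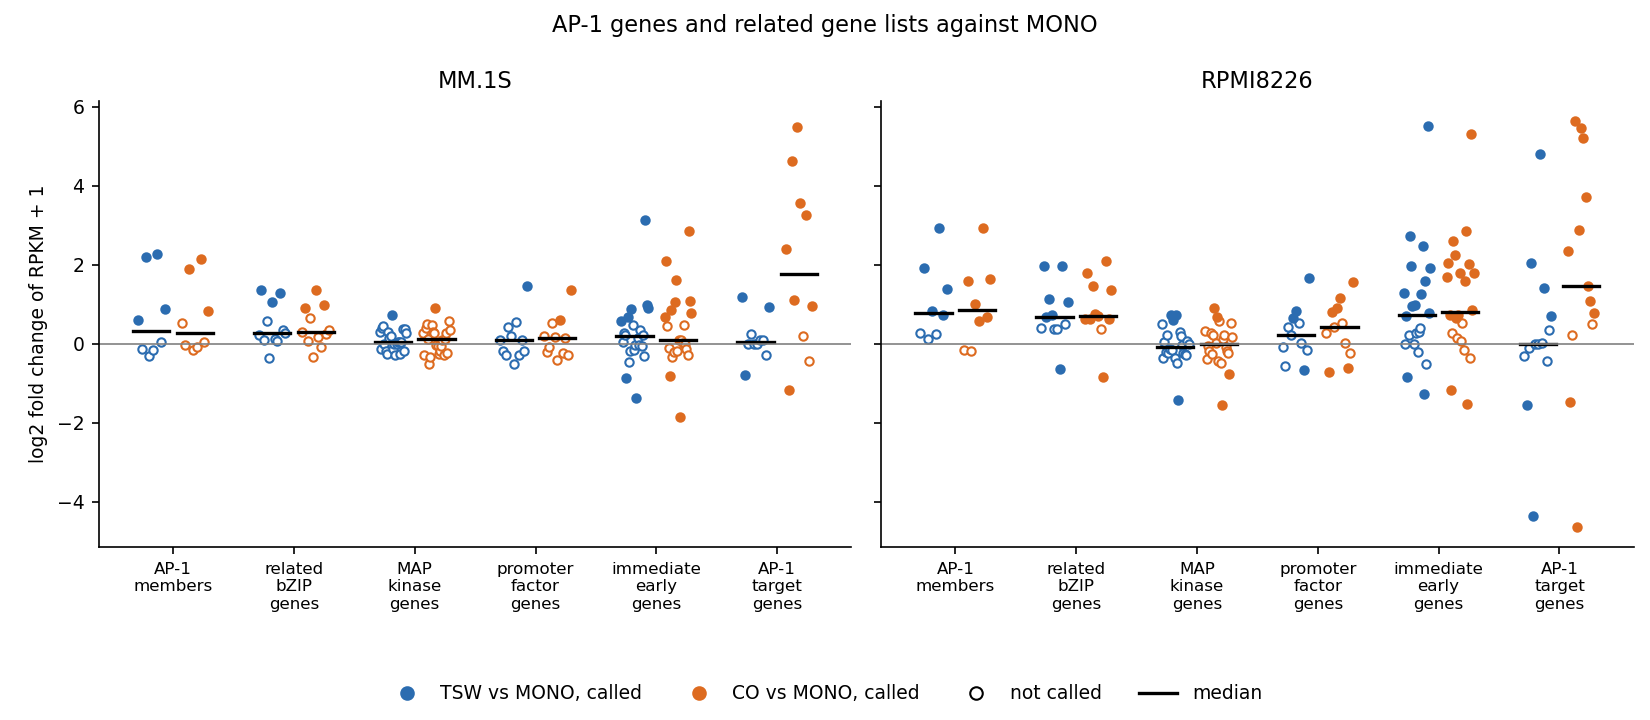
Log2 fold changes of the genes of 6 lists in TSW vs. MONO and CO vs. MONO, in MM.1S and RPMI8226. Points are genes tested and bars are medians; those of the MAP kinase genes lie between -0.09 and 0.13, and several AP-1 target genes with large changes in CO are at 0 in MONO and passed the filter through CO.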

How the data were processed

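RNA-Seq libraries of MM.1S (3 replicates per condition) and RPMI8226 (2) were compared between MONO, TSW and CO. The authors aligned reads to hg38 with Subread, counted read pairs per RefSeq gene with featureCounts and computed RPKM, which is normalised per library. The deposited values are log2(RPKM + 1) with 0.0001 added to each, which was subtracted. The design had assumed RPKM values, but the values are log2. Groups were taken from the sample labels. The members and the gene lists were chosen with earlier results of these data known.

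Conditions were compared by limma 3.58.1 under R 4.3.3 (lmFit, contrasts.fit, eBayes with trend), 1 fit per line over its 3 conditions, without covariates. Genes averaging 1 RPKM or more in the line were tested. Calls required a fold change over 1.5 and an adjusted p (Benjamini-Hochberg) under 0.05. All adjusted p-values are two-sided and from limma. The difference between lines was tested in a fit of the 15 libraries that was added after the data were seen. Lists were described by counts and medians without a test. Counts of members and list genes with a MONO or TSW mean of at least 1 RPKM, and of genes called in both lines, and pooled ratios without single libraries were added after the values were seen.

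Read pairs per gene were worked out from the steps between values within a library. Of 218078 values above 0, 100% came within 0.05 of an integer. Depth was 9008909 to 19050583 read pairs on genes per library, so 3 read pairs, as for FOS in MONO, leave a wide interval. Ratios of pooled read pairs carry exact binomial 95% intervals, which cover counting error only.

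The genes named were the members, up to 3 called genes with the largest increase and up to 3 with the largest decrease of each other list and comparison, and the 5 genes most like JUNB. RPS14P3, TRNN, HOOK2, PLA2G6 and the marker genes at 0 were named beside them after their values were seen. Promoter windows came from RefSeq (GRCh38.p14). Other steps used Python 3.11.15, pandas 2.3.3, numpy 2.4.6 and scipy 1.17.1, and plots were made with matplotlib 3.10.9. The procedure was also tested on simulated data.

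Alternatives changed 1 choice at a time. They were each library left out in turn, voom on the recovered read pairs, quantile normalization, median-of-ratios scaling, a pseudocount of 0.1, a minimum mean RPKM of 5 or none, no fold change threshold, eBayes with no trend, a fit of just the 2 conditions compared, and a replicate block. The chromatin accessibility data were not used here.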

Additional observations from a re-analysis of the deposited data

Results flagged for a closer look

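The results here are those in which the change of an AP-1 gene differed between the cell lines, by limma's test of the difference itself (RPMI8226 minus MM.1S, on the log2 scale). The test was chosen after the data were seen. In CO vs. MONO the change was larger in RPMI8226 for FOSL2 by 1.18 (adjusted p = 4.69e-06), MAFF by 0.80 (adjusted p = 0.000466), JUNB by 0.78 (adjusted p = 0.000382), JUN by 0.66 (adjusted p = 0.00295) and JUND by 0.64 (adjusted p = 0.0141). In TSW vs. MONO it was larger for FOSL2 by 1.13 (adjusted p = 9.78e-06), JUND by 0.68 (adjusted p = 0.0116) and JUNB by 0.65 (adjusted p = 0.00196). MAFF had a MONO mean under 1 RPKM in RPMI8226 and passed the filter there through TSW and CO. FOSL1 did not pass the filter in MM.1S. Without a filter it differed in the other direction in CO vs. MONO, by -1.18 (adjusted p = 0.000103). The part of stromal RNA in its level, or in those of JUN, FOSL2 and MAFF in CO, was not tested. Several of the calls for a larger change hang on single libraries. Both TSW libraries of RPMI8226 and MONO replicate 2 of MM.1S stood apart in RPS14P3 and TRNN. Without MM.1S MONO replicate 2 the same 3 members were called in TSW vs. MONO. For fits without a library, the share of all genes called is not given. Since both TSW libraries of RPMI8226 were affected, the TSW calls could not be tested against what set them apart. Without RPMI8226 TSW replicate 2, JUND lost that call (0.60) and MAFF, at 0.52 and under the fold threshold in the main fit, gained one (0.59, adjusted p = 0.0170). MAFF was also called there with median-of-ratios scaling (0.61), quantile normalization (0.59), a pseudocount of 0.1 (0.92), voom (0.997) or no fold threshold. Without MM.1S MONO replicate 1, the library of lowest depth, JUNB (0.57) and JUND (0.54) lost it and FOSL2 alone was called, and JUND also lost its call in CO vs. MONO (0.49). Other calls that were lost are JUNB in TSW vs. MONO without RPMI8226 MONO replicate 2 (0.55), JUN in CO vs. MONO without that library (0.57) and JUND in CO vs. MONO without RPMI8226 CO replicate 2 (0.54).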

How the results depend on the processing

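JUNB, FOS and MAFF kept their calls in TSW vs. MONO and CO vs. MONO of both lines, and FOSL2 those of RPMI8226, under every alternative in which they were tested. Of the results for single genes under the alternatives, 1231 were the same in direction and side of the threshold, 13 newly passed it, 23 no longer did and 29 turned direction. At a mean RPKM of at least 5 fewer members were tested, and 2 were called in TSW and 1 in CO of MM.1S, 2 in TSW and 3 in CO of RPMI8226, and 3 for the difference between lines in CO vs. MONO. Without a filter 1 was called in CO vs. TSW of MM.1S and 1 for its difference between lines, FOSL1 in both. Without a fold change threshold 2 were called in CO vs. TSW of RPMI8226, JUN and BATF. The share of all genes called in that way is not given, while 40.4% of all genes had an unadjusted p under 0.05 in limma.

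Leaving out each library in turn gave 3 to 4 members called in TSW and 3 to 4 in CO of MM.1S, 5 in TSW and 4 to 6 in CO of RPMI8226, and 0 in CO vs. TSW of both. For the difference between lines it gave 1 to 3 in TSW, 4 to 5 in CO and 0 in CO vs. TSW. In RPMI8226 this leaves 1 library in a condition, which is assumed to vary like the others. For the counts of members in this section, the share of all genes called in the same fit is not given. The counts therefore show only how many members were called, with no background beside them.

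The changes that turned direction were not called. Leaving out libraries gave, in MM.1S, JUND -0.10 to 0.20 (TSW vs. MONO), -0.12 to 0.18 (CO vs. MONO) and -0.051 to 0.029 (CO vs. TSW), JUN -0.15 to 0.0032 (CO vs. MONO), BATF3 -0.17 to 0.035 (CO vs. MONO) and -0.039 to 0.17 (CO vs. TSW), and in CO vs. TSW BATF -0.16 to 0.026 and MAFF -0.092 to 0.054. In CO vs. TSW of RPMI8226 it gave JUNB -0.048 to 0.065 and JUND -0.16 to 0.035, and for the difference between lines FOS -0.23 to 0.18 and JUND -0.14 to 0.055. Quantile normalization gave JUND 0.0046 in MM.1S, 0.017 in RPMI8226 and 0.017 for their difference, all in CO vs. TSW. The difference between lines for FOS was 0.22 in TSW and 0.15 in CO with a pseudocount of 0.1, and 1.09 and 1.05 by voom. The cause was not tested.

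With replicate number as a block (replicate block), 3, 3 and 0 members were called in TSW vs. MONO, CO vs. MONO and CO vs. TSW of MM.1S, and 5, 6 and 0 in RPMI8226. Deviations of libraries with the same number were correlated at -0.38 to 0.286 (MM.1S) and 0.164 to 0.271 (RPMI8226), so pairing was not assumed. The block was not run for the difference between lines.

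Depth limits FOSB and BATF3 in both lines, FOSL1 in MM.1S, and FOS in MONO, where a library held 0 to 7 read pairs.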
